A study of Mus musculus with 8 samples.

Results

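The genes described here encode the subunits of voltage-gated calcium channels (CaV) and voltage-gated sodium channels (NaV). They were chosen by name: every probe whose gene symbol begins with Cacna, Cacnb or Cacng, or is Scn followed by a number and the letter a or b. Cacng5 matches that pattern but was left out. Without it, the reference gene table names 39 such genes, of which 37 had a probe matched by accession, with 54 probes among them. Scn3b and Scn9a had no matched probe and were not analysed here. For a gene with several probes, the brightest over all samples was used. Of the 37 genes, 34 were tested because a probe exceeded background on the pair of arrays of 1 group or more, among 27188 genes and unnamed transcripts tested in all. The name pattern uses no measured difference, but it was chosen with earlier results of these data known.

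Total RNA from the hippocampus of male C57BL/6J mice, 11 weeks of age, was profiled on the 8 oligonucleotide arrays of 1 Agilent slide. Every group had 8 mice and is represented by 2 samples, replicate 1 labelled with the green dye Cy3 and replicate 2 with the red dye Cy5, each alone on its array. SED were sedentary mice fed a placebo powder, and ME were mice given mild treadmill exercise with the same placebo. AX were sedentary mice fed astaxanthin, a carotenoid antioxidant from a green alga, and AX+ME received the astaxanthin powder and the mild exercise. In every diet the powder made up 0.5% of the food, and the astaxanthin powder held 2% astaxanthin. The labels do not say how the RNA of 8 mice became 2 samples, or that the pair came from different animals, so the spread behind each p-value could be technical. In whole tissue, fewer cells of a type and less RNA per cell cannot be told apart.

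A CaV channel is built around an alpha1 subunit, which forms the pore, senses the voltage and sets the current type. L-type channels (CaV1) couple activity to gene expression, P/Q-, N- and R-type channels (CaV2) admit the calcium that triggers transmitter release, and T-type channels (CaV3) open near rest and support burst firing. The beta and alpha2delta subunits bring CaV1 and CaV2 channels to the membrane, and several gamma subunits work in hippocampus mainly as partners of AMPA-type glutamate receptors (TARPs). NaV alpha subunits carry the upstroke of the action potential: Scn1a serves chiefly in inhibitory interneurons, Scn2a and Scn8a in excitatory neurons, and Scn3a most strongly in development. NaV beta subunits adjust gating and act as adhesion molecules.

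Relative signal below means the intensity of a spot in the channel of its own sample divided by the 75th percentile of all non-control probes on that array. It has no unit, and a level of 1 probe cannot be set against that of another probe. Differences are on the log2 scale, group named first minus group named second, from a single limma fit over all 8 samples with terms for group and dye. A gene passed the test where its p-value, adjusted by Benjamini-Hochberg over all 27188 features, was under 0.05. The 75th percentile lay between 1420 and 2319 intensity units, and 63.2% to 76.2% of spots were well above background. The number of arrays, 2 in each group, limits the precision.

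On the slide each column of arrays holds 1 group and each row holds 1 dye, so the groups and their places on the glass cannot be told apart. Both SED arrays had an area at array column under 70 where spots left the other arrays. There, 16.0% of spots on the Cy3 SED array and 30.5% on the Cy5 SED array lay more than 0.5 (log2) from the mean of the other arrays of the dye, against 2.15% to 4.53% on the other 6 arrays. From column 70 on, the share was 0.629% to 2.94% on all 8 arrays. Of the 34 channel genes, 16 had their used probe under column 70, so a second fit used spots from column 70 on alone, with 25 channel genes among 17778 features. All 8 markers of hippocampal neurons were above background on all 8 arrays, with a summed relative signal of 36.2 to 41.6. Skeletal muscle Ckm was above background on no array.

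Against SED, 2 of the 34 channel genes passed the limma test after Benjamini-Hochberg adjustment in any comparison. Cacna1g, which encodes the T-type pore CaV3.1, was higher in ME, AX and AX+ME. Scn1a, which encodes the sodium channel NaV1.1, was lower in AX and AX+ME. In ME against SED 1 of 34 channel genes passed, where 2.85% of all features did. In AX against SED 2 of 34 passed, against 3.38% of all features, and in AX+ME against SED 2 of 34 passed, against 6.69%. Each count is within 1 gene of what the background share of 34 genes comes to. By unadjusted limma p under 0.05 there were 7, 6 and 7 of 34, where 24.2%, 26.5% and 32% of all features had one. Both genes were measured by probes under column 70. In the fit from column 70 on, no channel gene passed in ME or AX against SED (0% of all features passed) or in AX+ME against SED (0.0169%), and 4, 5 and 4 of 25 had an unadjusted limma p under 0.05, where 21.6%, 24.6% and 32% of all features did.

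**Figure D1:**
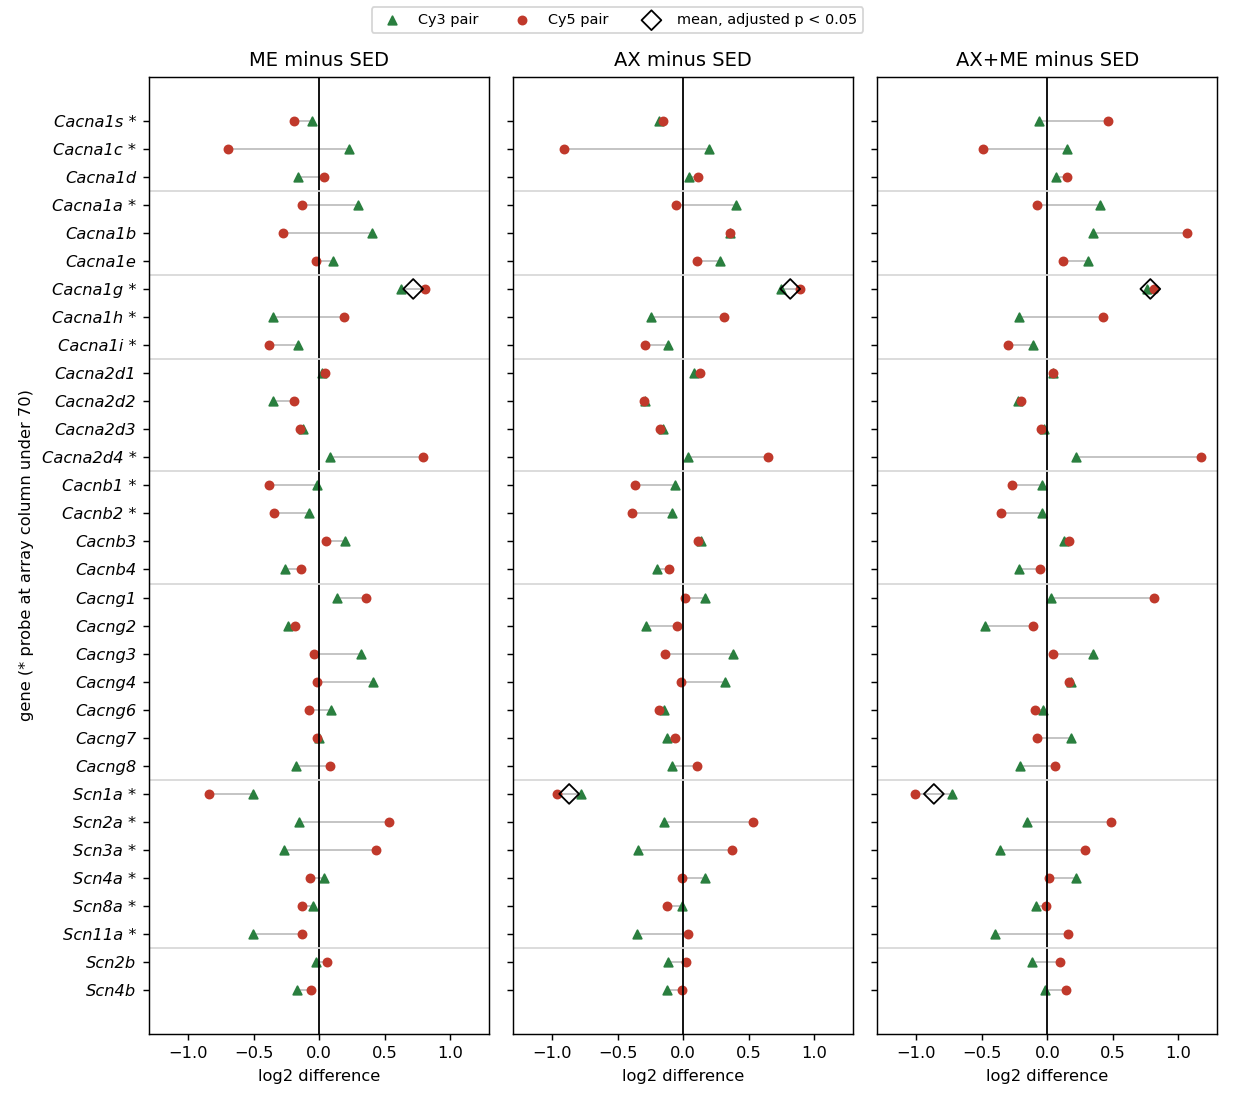
Log2 difference of 32 channel genes (rows, by subfamily; asterisk for a probe at array column under 70) in ME, AX and AX+ME minus SED, with a triangle for the Cy3 pair of samples, a circle for the Cy5 pair and a diamond on the mean of genes past the adjusted limma threshold of 0.05. Cacna1g lay to the right in all 3 panels and Scn1a to the left, while Scn2a, Scn3a and Cacna1h lay on opposite sides of 0 in the 2 dyes.

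Most channel genes kept close to the SED level, which was not particular to them. The median size of their difference from SED was 0.129 in ME, 0.157 in AX and 0.158 in AX+ME. Over all features it was 0.146, 0.160 and 0.180. The median difference over the 34 was -0.03 in ME, -0.05 in AX and 0.05 in AX+ME, beside -0.05, -0.04 and -0.03 over all features. Channel genes were higher than SED in 15, 16 and 18 cases and lower in 19, 18 and 16. Among the higher genes were Cacna2d4 and Cacng1, which passed the background filter only through groups where they read higher than SED. Within 1.5-fold of SED lay 32 of 34 in ME, 32 in AX and 30 in AX+ME. At least 1.5-fold apart in the same direction in both dyes were Cacna1g in all 3 comparisons and Scn1a in AX and AX+ME, where 3.56%, 3.86% and 5.05% of all features met that rule.

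Among the T-type pores, Cacna1g was the gene that rose. Relative signals are listed throughout in the order SED, ME, AX and AX+ME. Cacna1g read 1.07, 1.66, 1.80 and 1.82 with Cy3 and 0.962, 1.69, 1.78 and 1.69 with Cy5. Both SED samples lay below all 6 others, and the 6 others lay close together. The log2 difference from SED was 0.72 in ME (SE 0.0680, limma adjusted p = 0.0229), 0.82 in AX (adjusted p = 0.0187) and 0.79 in AX+ME (adjusted p = 0.0179). All 3 calls held without either SED sample and were lost without any 1 of the 6 other samples, where the limma adjusted p ran from 0.0822 to 0.228. The gene's used probe sat at column 7, inside the area described above. Within 5 rows and columns of it on the Cy3 SED array, 33.9% of 56 neighbouring spots lay more than 0.5 (log2) from the other groups, and on the Cy5 SED array 44.4% did, against 0 to 5.36% on the other 6 arrays. The probe's own deviations on the SED arrays were -0.71 and -0.84, within the 10th to 90th percentile of its neighbours, which ran from -0.81 to 0.39 and from -1.03 to 0.55.

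A second Cacna1g probe, at column 78, read 1.41, 1.32, 1.49 and 1.55 in Cy3 and 1.40, 1.11, 1.22 and 1.40 in Cy5. Here the SED samples lay inside the range of the others. Its differences from SED were -0.21 in ME (95% interval -0.42 to 0.00094), -0.05 in AX (-0.27 to 0.16) and 0.07 in AX+ME (-0.14 to 0.28), with limma adjusted p of 0.232, 0.713 and 0.588 in the fit from column 70 on. These intervals do not reach the differences of the column 7 probe. Which transcripts each probe covers was not analysed here.

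The other T-type pores did not pass. Cacna1i, the CaV3.3 pore, read 7.35, 6.58, 6.77 and 6.80 in Cy3 and 8.22, 6.31, 6.73 and 6.67 in Cy5. Both SED samples lay above all others, with differences of -0.27, -0.20 and -0.21 and limma adjusted p of 0.127, 0.179 and 0.144. That probe is at column 48. Another at column 70 read 0.269 and 0.319 in SED and 0.246 to 0.304 in the others, which overlap, with differences of -0.24, -0.07 and 0.02. Cacna1h, the CaV3.2 pore, gave 4.79, 3.76, 4.04 and 4.12 in Cy3 and 2.54, 2.90, 3.16 and 3.42 in Cy5. SED was the highest Cy3 sample and the lowest Cy5 sample, and the 3 differences, from -0.08 to 0.11, did not pass. Cacna1h also had the largest gap between dyes among the 34 genes, -0.48 (Cy5 minus Cy3). Another Cacna1h probe, at column 30, read 0.0947 and 0.0917 in SED and 0.0925 to 0.110 in the others. Its differences of 0.07, 0.09 and 0.22 did not pass in the fit over kept probes (smallest limma adjusted p = 0.178).

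Of the sodium channel pores, Scn1a stood furthest from SED. Its relative signal was 8.64, 6.08, 5.03 and 5.22 in Cy3 and 10.1, 5.64, 5.19 and 5.03 in Cy5. The SED samples lay above all 6 others, and both ME samples lay above both AX and both AX+ME samples. The difference from SED was -0.68 in ME (SE 0.0979), which missed the limma threshold (adjusted p = 0.0503). It was -0.87 in AX (adjusted p = 0.0308) and -0.87 in AX+ME (adjusted p = 0.0281). These calls too held without either SED sample and were lost without any 1 of the others (limma adjusted p = 0.0905 to 0.267), and ME passed without SED replicate 1 (-0.81, adjusted p = 0.0148). Among 66 spots around this probe, at column 39, 24.2% on each SED array were more than 0.5 (log2) off. The probe's own deviations of 0.67 and 0.94 exceeded the 90th percentile of those neighbours, 0.64 and 0.60, and the Cy5 value was just above the highest of them.

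Scn1a also has a probe at column 162, where 1.85% of neighbouring spots were off on the Cy3 SED array and none on the Cy5 SED array. It read 0.332, 0.345, 0.276 and 0.280 in Cy3 and 0.303, 0.319, 0.317 and 0.321 in Cy5. The groups overlapped. Differences from SED were 0.06 in ME (95% interval -0.23 to 0.36), -0.10 in AX (-0.40 to 0.19) and -0.08 in AX+ME (-0.38 to 0.22), with limma adjusted p in the fit from column 70 on of 0.797, 0.607 and 0.652. The intervals do not reach the differences of the column 39 probe.

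**Figure D2:**
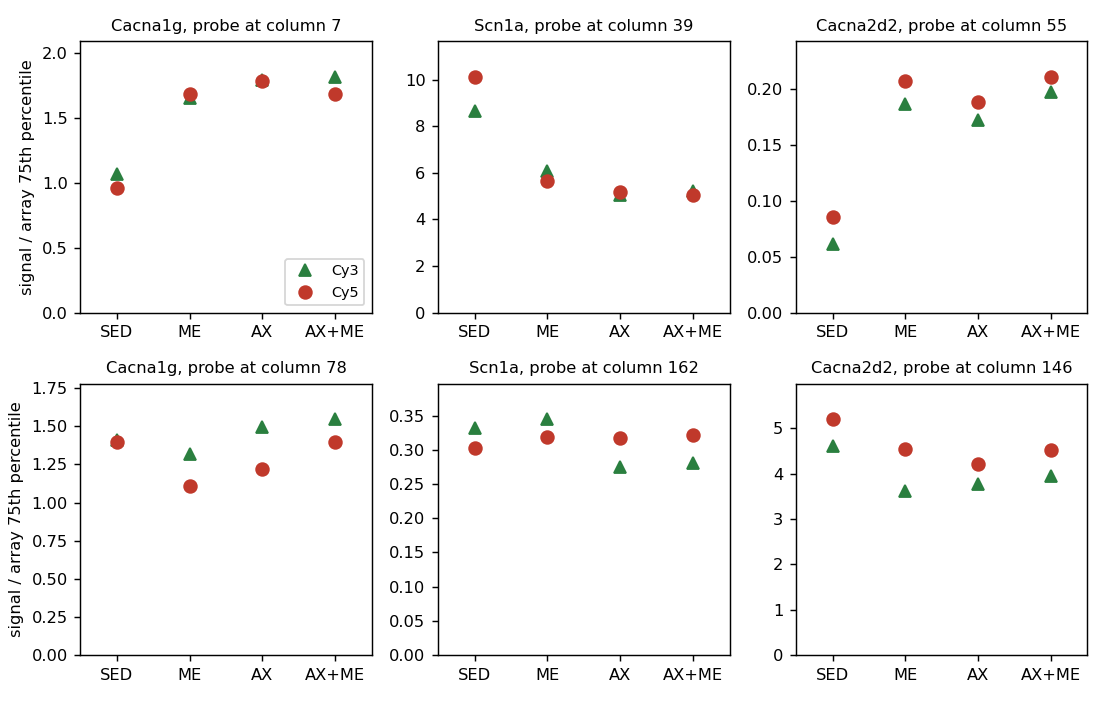
Relative signal (spot intensity over the array's 75th percentile, linear axes from 0) of both probes of Cacna1g, Scn1a and Cacna2d2 in the 4 groups, triangles for Cy3 and circles for Cy5 samples; the upper row holds the probe at array column under 70 and the lower row the probe further right. The SED samples stood apart from the other 6 in all 3 upper panels, whereas in the lower panels they lay inside the others' range for Cacna1g and Scn1a and above it for Cacna2d2.

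Scn2a, the NaV1.2 pore of excitatory neurons, offers a direct view of the spread between spots, because 1 of its 3 probes is spotted 10 times on each array. Its 4 spots under column 70, at columns 5, 25, 28 and 69, ran from 5.03 to 7.66 on the Cy3 SED array and from 3.11 to 8.21 on the Cy5 SED array, a 2.64-fold range for 1 sequence and 1 sample. The standard deviation of their log2 signal was 0.289 and 0.596 on these arrays and 0.0139 to 0.0552 on the other 6. The 6 spots from column 70 on ran from 6.33 to 6.93 in the Cy3 SED sample and from 5.83 to 6.57 in the Cy5 SED sample, with a standard deviation of 0.0146 to 0.0591 over all 8 arrays. From those 6 spots Scn2a differed from SED by -0.11 in ME, -0.10 in AX and -0.19 in AX+ME, the same sign in both dyes. From the 4 spots under column 70 the Cy3 pairs gave -0.20, -0.20 and -0.25 and the Cy5 pairs 0.35, 0.36 and 0.24.

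**Figure D3:**
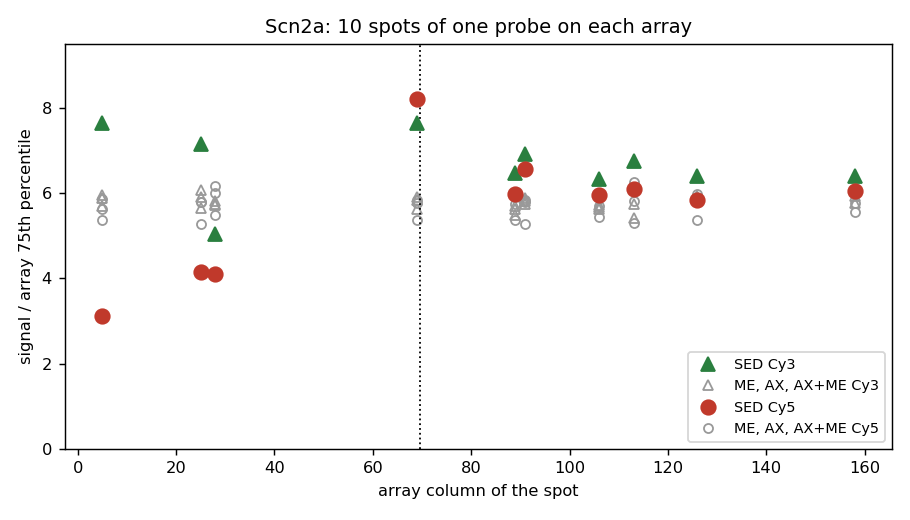
Relative signal of the 10 spots of 1 Scn2a probe (linear axis from 0) against the array column of the spot, with large filled symbols for the SED arrays, small open symbols for the 6 other arrays and a dotted line before column 70. Left of the line the SED spots scattered from 3.11 to 8.21, and right of it they lay between 5.83 and 6.93.

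The brightest Scn2a probe, at column 22 and the one used, gave 17.4, 15.6, 15.7 and 15.6 in Cy3 and 11.9, 17.3, 17.3 and 16.7 in Cy5. SED was the highest Cy3 sample and the lowest Cy5 sample, and the mean differences of 0.19, 0.20 and 0.17 did not pass (limma adjusted p = 0.598, 0.566 and 0.602). A further Scn2a probe, at column 73, read 0.570 and 0.603 in SED and 0.419 to 0.486 in the others, with differences of -0.34, -0.32 and -0.44 that did not pass in the fit over kept probes (limma adjusted p = 0.0956, 0.100 and 0.0525). Scn3a, the NaV1.3 pore, followed the same pattern with 5.21 in SED against 4.06 to 4.34 in the other Cy3 samples and 3.63 in SED against 4.44 to 4.91 in the other Cy5 samples. A further Scn3a probe at column 22 turned the order round, with 2.66 in SED against 3.31 to 3.72 in the other Cy3 samples and 6.97 in SED against 3.52 to 4.15 in the other Cy5 samples. All 3 kept Scn3a probes lie under column 70.

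Further sodium channel pores did not pass. Scn8a, the NaV1.6 pore of the axon initial segment, read 2.80, 2.72, 2.78 and 2.64 in Cy3 and 3.11, 2.84, 2.84 and 3.09 in Cy5, with differences of -0.09, -0.07 and -0.05 from SED. Its other probes at columns 125 and 5 gave -0.04, -0.13 and -0.22, and 0.16, 0.08 and -0.07. Scn4a, the skeletal muscle channel, gave 0.305 to 0.355 over all 8 samples. Scn11a, a channel of sensory neurons, read 0.141, 0.0994, 0.110 and 0.107 in Cy3 and 0.110, 0.100, 0.113 and 0.123 in Cy5. SED was the highest Cy3 sample but not the highest Cy5 sample, and the differences were -0.32, -0.16 and -0.12 (limma adjusted p = 0.266, 0.522 and 0.608; probe at column 53). Muscle markers stand beside these: 7 of 10 were tested, Ckm was above background on no array, and the summed relative signal was 6.45 and 6.66 in SED and 4.62 to 4.96 in the other samples. Of the 7, none passed in ME, 1 was lower in AX and 2 in AX+ME, and the part of muscle RNA in Scn4a was not tested. Scn7a and Scn10a, of glia and sensory neurons, were above background on no array, with relative signals under 0.0076, as was Cacna1f, the retinal L-type pore, at no more than 0.0100.

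The sodium channel beta subunits described here lay outside the disturbed area. Scn2b, the beta2 subunit, read 31.1, 30.5, 28.7 and 28.7 in Cy3 and 25.7, 26.8, 26.0 and 27.5 in Cy5, with differences from SED between -0.05 and 0.02. The spot was saturated in the Cy5 SED sample, so that level and the differences that use it are limits. Scn4b, the beta4 subunit linked to resurgent current, read 2.63, 2.34, 2.42 and 2.59 in Cy3 and 2.39, 2.28, 2.38 and 2.63 in Cy5. AX+ME exceeded ME in both dyes, by 0.18 in the mean, with a limma adjusted p of 0.585.

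Among the CaV2 pores, which serve transmitter release, none passed, and the means of the used probes were higher than SED in all 3 comparisons. Cacna1a, the P/Q-type pore, read 3.84, 4.71, 5.07 and 5.06 in Cy3 and 5.49, 5.01, 5.29 and 5.19 in Cy5. SED was lowest in Cy3 and highest in Cy5, and the probe is at column 3. A Cacna1a probe at column 136 gave -0.04, 0.07 and -0.04, so the shared direction did not hold from column 70 on. Cacna1e, the R-type pore, at column 143, gave 0.100, 0.108, 0.122 and 0.124 in Cy3 and 0.114, 0.112, 0.123 and 0.124 in Cy5. Both samples of AX and of AX+ME lay above all SED and ME samples. The difference from SED was 0.19 in AX and 0.21 in AX+ME (limma adjusted p = 0.175 and 0.123). Cacna1b, the N-type pore, was dim, above background on both arrays of SED and AX+ME and on 1 of 2 in ME and AX, with 0.0290, 0.0384, 0.0371 and 0.0370 in Cy3 and 0.0208, 0.0172, 0.0267 and 0.0437 in Cy5. Its difference in AX+ME against SED was 0.71 with an SE of 0.33 (limma adjusted p = 0.223).

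The L-type pores did not separate the groups. Cacna1d, the CaV1.3 pore, ran from 0.461 to 0.577 over all samples, and its differences from SED were -0.06, 0.08 and 0.11. Another Cacna1d probe at column 21 gave -0.37, -0.31 and -0.40, which did not pass either (smallest limma adjusted p = 0.0969). Cacna1c, the CaV1.2 pore and the main L-type channel of hippocampal neurons, was dim on its only probe, at column 46. It was above background on all arrays but 1 of AX. It read 0.0329, 0.0387, 0.0378 and 0.0366 in Cy3 and 0.0475, 0.0293, 0.0252 and 0.0338 in Cy5. SED was the lowest Cy3 sample and the highest Cy5 sample, so the dyes opposed each other. Cacna1s, the muscle L-type pore, gave 0.237 to 0.280 in 7 samples and 0.386 in the Cy5 sample of AX+ME.

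The alpha2delta subunits include the targets of gabapentin, Cacna2d1 and Cacna2d2. Cacna2d1 was lowest in both SED samples, at 10.9 in each dye, against 11.1 to 11.9 in the others, with differences of 0.03, 0.11 and 0.04 that did not pass. Another Cacna2d1 probe at column 158 had the opposite order, 6.28 and 5.58 in SED against 4.71 to 5.30 in the others. Its differences of -0.21, -0.20 and -0.27 did not pass in the fit over kept probes (limma adjusted p = 0.145, 0.147 and 0.0783). Cacna2d2, at column 146, read 4.62, 3.61, 3.77 and 3.94 in Cy3 and 5.20, 4.55, 4.22 and 4.52 in Cy5. SED was the highest sample in each dye and lay above all 6 others. The differences of -0.27, -0.30 and -0.22 did not pass (limma adjusted p = 0.105, 0.0839 and 0.111). Cacna2d3 was at 7.82 to 9.80, with differences from -0.17 to -0.04. Cacna2d4, at column 8, was dim and above background on 1 of 2 SED arrays and on all 6 others. It gave 0.0408, 0.0431, 0.0418 and 0.0474 in Cy3 and 0.0244, 0.0424, 0.0382 and 0.0552 in Cy5, and its difference in AX+ME, 0.70, did not pass (limma adjusted p = 0.134). Cacna2d4 passed the background filter through the treated groups, where it read higher, so that direction is not independent of the filter.

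The other Cacna2d2 probe, at column 55, went the other way. It read 0.0614, 0.187, 0.173 and 0.197 in Cy3 and 0.0852, 0.208, 0.188 and 0.211 in Cy5. In a limma fit over all 37441 kept probes its differences were 1.44, 1.32 and 1.5 (adjusted p = 0.0189, 0.0220 and 0.0162), with SED below all others. Of the spots around it, 5.71% and 4.29% were off by more than 0.5 (log2) on the SED arrays, while the probe itself was off by -1.59 and -1.25. This gene had the widest gap between probes of the 13 channel genes with several kept probes, up to 1.72. All kept probes of a gene had the same sign in 4 of 13 genes in ME, 6 in AX and 6 in AX+ME, with a median gap of 0.25, 0.25 and 0.31. The share over all genes with several kept probes was not computed, so these counts are not read as particular to channel genes.

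Beta subunits of CaV channels did not pass. Cacnb2 read 0.821, 0.779, 0.774 and 0.800 in Cy3 and 1.00, 0.788, 0.766 and 0.784 in Cy5, with both SED samples above the rest and differences of -0.21, -0.24 and -0.20 (limma adjusted p = 0.276, 0.220 and 0.247). Cacnb1 likewise was highest in SED, 0.815 and 0.916 against 0.701 to 0.806. Both probes are under column 70. A Cacnb2 probe at column 141 gave -0.01, -0.27 and -0.27, and on it the Cy3 samples of SED and ME were level at 0.162. Further right, Cacnb4 read 4.19, 3.50, 3.65 and 3.60 in Cy3 and 3.33, 3.03, 3.08 and 3.20 in Cy5, and Cacnb3, the main beta partner of many neuronal channels, was at 4.90 to 6.28. SED was the highest sample of each dye for Cacnb4 and the lowest for Cacnb3, with differences of -0.20 to -0.14 and 0.12 to 0.15.

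The gamma subunits tested here, all measured right of column 70, did not pass either. The TARP Cacng2 (stargazin) read 3.04, 2.58, 2.50 and 2.19 in Cy3 and 2.31, 2.04, 2.23 and 2.15 in Cy5. SED was highest in each dye, and the difference was -0.29 in AX+ME (limma adjusted p = 0.153). The TARP Cacng8, enriched in hippocampus, read 0.304, 0.269, 0.287 and 0.263 in Cy3 and 0.207, 0.219, 0.223 and 0.216 in Cy5, with differences between -0.08 and 0.01. Cacng3 ran from 1.31 to 1.71, Cacng4 from 0.110 to 0.147 and Cacng7 from 0.134 to 0.165. Cacng1, the muscle gamma subunit, was above background on both AX+ME arrays and on 1 of 2 in each other group. It read 0.0224, 0.0247, 0.0251 and 0.0229 in Cy3 and 0.0152, 0.0194, 0.0153 and 0.0266 in Cy5, and the groups overlapped. Its differences were 0.25, 0.09 and 0.42 (limma adjusted p = 0.577, 0.842 and 0.299). Cacng1 passed the background filter through AX+ME alone, its highest group, so the direction there is not independent of the filter. Cacng6 ran from 0.215 to 0.253.

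**Figure D4:**
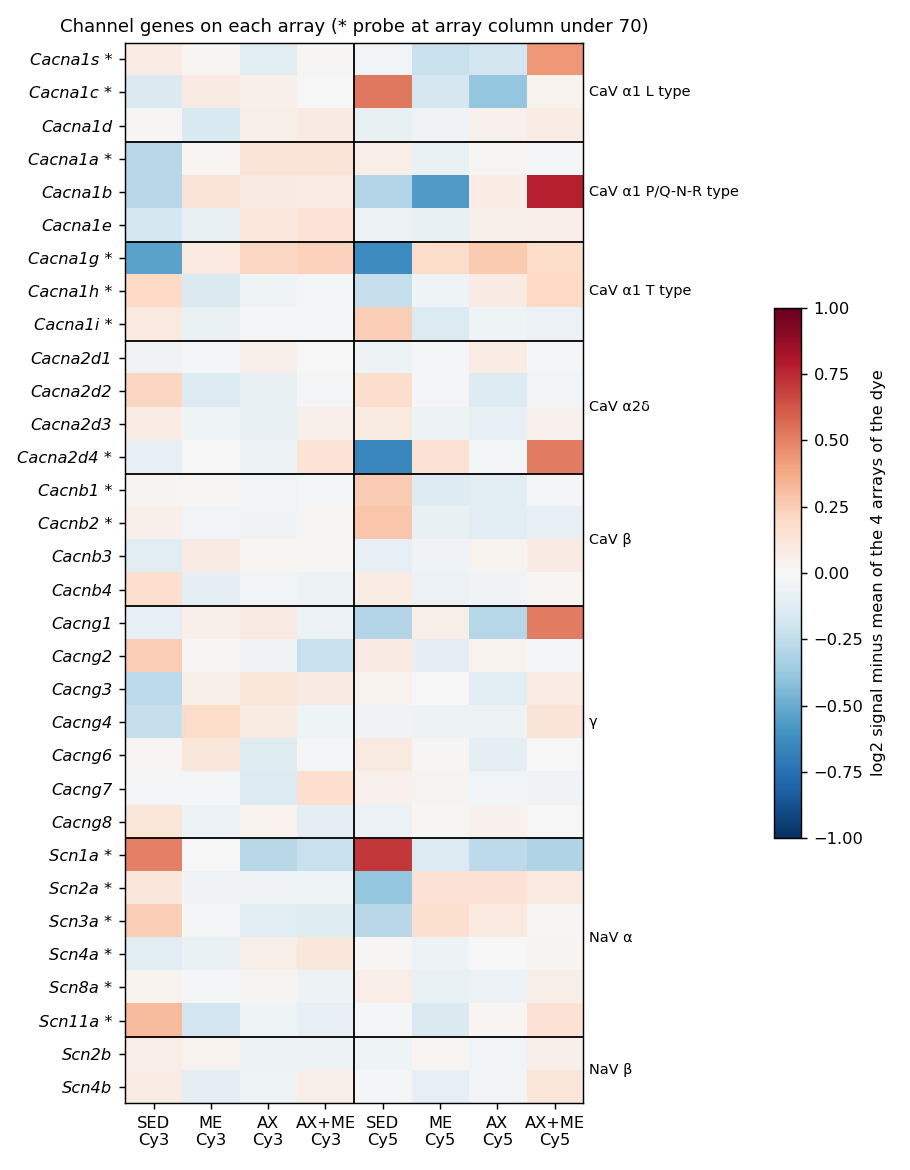
Log2 relative signal of 32 channel genes (rows, by subfamily; asterisk for a used probe at array column under 70) on each of the 8 arrays (columns, Cy3 then Cy5), as the deviation from the mean of the 4 arrays of the dye; the colour scale runs from -1 to 1. SED is blue for Cacna1g and red for Scn1a in both dyes, while Cacna1b, Cacna2d4 and Cacng1 have their strongest colours in Cy5 samples alone.

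Both SED samples exceeded all 6 others in 6 of 34 channel genes, among them Cacna1i, Cacna2d2, Cacnb1, Cacnb2 and Scn1a, where 18.4% of all features did. They lay below all others in 2 of 34 (Cacna1g and Cacna2d1), where 10.4% did. From column 70 on, the counts were 2 of 25 (Cacna2d2 and Scn2a; 16.6% of features) and 1 of 25 (Cacna2d1; 5.86%). The median size of a difference from SED among channel genes was 0.20 in ME, 0.19 in AX and 0.16 in AX+ME under column 70, and 0.12, 0.12 and 0.14 from column 70 on. Over all features it was 0.24, 0.25 and 0.26 under column 70, and 0.11, 0.12 and 0.14 from column 70 on.

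The comparisons that add a treatment to a treated group bear on whether exercise and astaxanthin together differ from either alone. No channel gene passed in AX+ME against ME or AX+ME against AX, where 0% of all features did in either. By unadjusted limma p under 0.05, Scn4b alone differed in the former (8.2% of features did) and 1 gene did in the latter (5.91%). Differences ran from -0.19 (Scn1a) to 0.65 (Cacna1b) and from -0.12 (Cacng2) to 0.37 (Cacna1s). Within 1.5-fold lay 33 and 34 of the 34 genes, Cacna1b being the exception. In AX+ME 26 of 34 were higher than in ME and 25 of 34 higher than in AX, with medians of 0.06 and 0.04 beside 0.01 over all features. From column 70 on, 15 of 25 were higher than in ME and 19 of 25 higher than in AX. The medians there were 0.06 and 0.03, beside 0.01 over all features in each. The share of all features that were higher was not computed. The AX+ME samples are shared by both comparisons. Cacng1, which passed the background filter through AX+ME alone, is among the higher genes in each of these counts.

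The interaction asks whether the response to both treatments departs from the sum of the single responses. No channel gene passed (0.463% of all features did), and 5 of 34 had an unadjusted limma p under 0.05 (14.7% of features did). Cacna1g gave -0.75 (limma adjusted p = 0.0797) and Scn1a 0.68 (adjusted p = 0.174), and both values contain the SED samples. With exercise averaged over diets, no channel gene passed (0.662% of features) and 4 had an unadjusted p under 0.05 (19.3%). With astaxanthin averaged over activity, none passed (0.736%) and 3 had an unadjusted p under 0.05 (25%). Cacna1g gave 0.34 (limma adjusted p = 0.0797) for exercise and 0.44 (adjusted p = 0.0529) for astaxanthin. From column 70 on, none of 25 channel genes passed in AX+ME against ME (0.0169% of features) or in AX+ME against AX, the interaction or either averaged comparison (0% each). Unadjusted limma p under 0.05 were found for 5, 2, 6, 2 and 5 of them in that order, where 13.5%, 9.73%, 12.8%, 19.7% and 26.9% of features had one.

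Genes that act on these channels were listed by role. None of 4 GTPases of the RGK family, which inhibit CaV channels, passed against SED, nor did any of 9 other CaV regulators, 4 FGF homologous factors of NaV channels, 4 scaffold genes of the axon initial segment or the ubiquitin ligase gene Nedd4l. All 3 calmodulin genes, whose product gates CaV and NaV channels by calcium, were lower than SED in all 3 comparisons, and 1 passed: Calm2 in AX+ME, by -0.63 (limma adjusted p = 0.0496). Its used probe is at column 51. The calmodulin medians were -0.43, -0.49 and -0.46 over all columns and -0.05, -0.06 and -0.08 from column 70 on, where 1 of the 3 genes was higher in each comparison. Of the sodium leak channel complex 3 genes were tested, and Unc80, a scaffold of NALCN, was higher by 1.27, 1.25 and 1.14 (limma adjusted p = 0.0237, 0.0240 and 0.0255). That probe, at column 56, read 3.04, 8.51, 8.15 and 7.65 in Cy3 and 4.20, 8.71, 8.87 and 8.15 in Cy5, while another Unc80 probe at column 60 gave differences of 0.06, 0.04 and -0.07. Both probes lie under column 70, so Unc80 was not tested in the fit from column 70 on. No other gene of these lists passed in that fit, where 0% of all features passed in ME and AX and 0.0169% in AX+ME against SED.

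Markers of other cells were set beside the channel genes. Of 5 thalamic markers, a region rich in Cacna1g, 4 were higher than SED in each comparison and Prkcd passed in ME and AX+ME. Their summed relative signal was 4.42 and 4.81 in SED and 4.53 to 4.97 elsewhere. From column 70 on, 2 of 3 tested thalamic markers were higher in each comparison, with medians of 0.01, 0.02 and 0.05. Of 6 markers of interneurons, the cells that rely on Scn1a, 4, 5 and 4 were lower than SED in ME, AX and AX+ME (medians -0.08, -0.14 and -0.12), while Gad1 was higher and the one to pass in all 3. Their sum was 102 and 108 in SED and 96.1 to 112 elsewhere. From column 70 on, 2, 3 and 2 of 4 tested interneuron markers were lower, with medians of 0.01, -0.03 and -0.002. Markers of choroid plexus passed as lower in 5, 0 and 7 of 8 cases in ME, AX and AX+ME, with medians of -0.47, -0.13 and -0.57. Some also passed for striatum (1 of 7 lower in each), meningeal fibroblasts (2, 1 and 0 of 5 lower) and pituitary and hypothalamus (3, 2 and 2 of 6 lower, with 1 higher in AX). None passed for astrocytes, oligodendrocytes or microglia, and none in any list from column 70 on. The sizes stayed similar there for choroid plexus, where all 7 tested markers were lower in ME and in AX+ME (medians -0.44 and -0.54), and for pituitary and hypothalamus in ME (median -1.63, beside -1.53 over all columns). Striatum had medians of -0.30, -0.11 and -0.05 over all columns and -0.30, 0.004 and 0.01 from column 70 on. The 2 meningeal fibroblast markers tested from column 70 on had medians of -0.66, -0.40 and -0.21. Over all columns those medians were -0.34, -0.16 and -0.11. The part of the cells of these lists in the channel genes' values was not tested.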

How the data were processed

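Intensities were deposited as scanner output, which the submitters' processing notes credit to Agilent Feature Extraction 11.0.1.1. Labelling used a kit for both dyes, per the labels' protocols. The probe design refers to mouse build mm9, per the file headers, which name a 2-channel protocol. The deposited processed intensity is linear, background-subtracted and detrended by the authors' software. The deposited series-wide values were the same intensities rounded, all within 0.5 of the own-channel signal. They are linear and uncentred, with a known direction, and medians of 121, 139, 159 and 177 (Cy3) and 178, 202, 212 and 193 (Cy5) for SED, ME, AX and AX+ME.

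Each own-channel signal was taken relative to the 75th percentile of non-control probes on its array, floored at 5e-04 of it (no used channel probe was at the floor) and put on the log2 scale. Control and non-uniform spots were left out, saturated spots were kept, and spots of a probe were averaged. Symbols came from accessions through the RefSeq gene table of GRCm38.p6, whose coordinates were not used. A probe was kept if well above background on both arrays of 1 group or more, and a gene was represented by its brightest kept probe. Limma 3.58.1 in R 4.3.3 was fitted with group and dye (3 residual and 1.5138 prior degrees of freedom), and tested on simulated data. P-values are two-sided. Dye equals replicate number, so the dye term is the replicate block, and the pairing comes from the dye labels.

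Channel genes were named with values in every sample if past a threshold, 1.5-fold apart in both dyes, near background, or furthest from SED in their subfamily. Others were named to account for the genes; a few results are not reported here. The channel genes, the lists and column 70 were chosen with earlier results of these data known. Alternatives were quantile normalization, normexp on median signals, other filters and probe rules, non-uniform spots kept, spots from column 70 on, no dye term and leaving out each sample.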

Additional observations from a re-analysis of the deposited data

How the results depend on the processing

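The share of all features past the adjusted limma threshold was not computed for the alternative settings, except from column 70 on. A changed count is therefore not read as a result about channel genes. Nor need a count hold the genes reported above. With the second brightest probe, Cacna1g and Scn1a were read from their probes at columns 78 and 162. Counts of channel genes past that threshold moved as follows. ME against SED, 1 as reported, gave 2 with normexp background correction, 0 with no filter on dim probes, 2 with probes above background on all 8 arrays, 0 from column 70 on and 2 with no replicate block (no dye term). AX against SED, 2 as reported, gave 0 with no filter, 0 from column 70 on and 1 with the second brightest probe, an alternative chosen after seeing the data. AX+ME against SED, 2 as reported, gave 5 with normexp, 1 with no filter, 0 from column 70 on and 1 with the second brightest probe. Exercise averaged over diets gave 1 with the second brightest probe, and astaxanthin averaged over activity gave 1 with normexp, 2 with probes above background on all 8 arrays and 2 with no replicate block, where 0 were reported for each.

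Leaving out 1 sample at a time gave 0 to 7 in ME, 0 to 7 in AX and 0 to 8 in AX+ME against SED, 0 to 4 for the interaction and exercise, 0 to 5 for astaxanthin, and 0 throughout for AX+ME against ME and AX. The highest counts (7, 7, 8, 4, 4 and 5) came without SED replicate 1, and all counts against SED were 0 without any sample of ME, AX or AX+ME. Each such fit leaves a group with 1 sample, assumed to vary like the others. The share of all features past the threshold was not computed for these fits either, so their counts have no background to be read against. Cacna1g reversed with normexp (-0.19 in ME, -0.17 in AX), which makes its column 78 probe the brightest, and with that probe from column 70 on or as second brightest (-0.211 and -0.054 in both settings). The cause of the other changes was not tested.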
